A study of Mus musculus with 8 samples.

Results

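The genes of the route from the kinase Syk to the adaptor Card9 and its partners Bcl10 and Malt1 were followed in RNA of mouse peritoneal macrophages. The 8 Agilent arrays, each read in 1 colour, held 4 samples of wild-type mice (wt) and 4 of Card9-deficient mice (Card9-/-). The 9 members were Syk, Plcg2, Prkcd, Card9, Card10, Trim62, Bcl10, Malt1 and Map3k7, of 37074 names on the array. They were chosen by name, with earlier results of these data known, and each of the 22 probes that carry one of these names (of 56605 probes) is shown. Mice of both groups had been given thioglycolate, which draws cells into the peritoneum, and zymosan, particles made from yeast walls (500 mg/kg for 4 h), and the cells that adhered in culture were used. The labels speak of pellets from 4 or 5 mice per group and do not say whether an array holds 1 mouse or a pool, so p-values measure only the spread between these samples. Strain, age, sex and the deleted part of Card9 are not given in the sources used here, and untreated mice were not analysed here.

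Fungal wall sugars are read by lectin receptors of myeloid cells, Dectin-1 among them, whose tails recruit Syk. Syk activates phospholipase C gamma 2 (Plcg2), whose product diacylglycerol activates protein kinase C delta (Prkcd), and Prkcd phosphorylates Card9. Card9 then seeds filaments of Bcl10 that carry the protease Malt1, from which the kinase TAK1 (Map3k7) and the IkB kinases lead to NF-kB. Card10 is a scaffold of the same family that uses Bcl10 and Malt1 mainly outside blood cells, and Trim62 is a ubiquitin ligase that modifies Card9.

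Both Card9 probes and 1 of the 3 Prkcd probes match RNA joined across an intron, because their ends on the genome lie further apart than the 60 bases of the probe. Their sequences are shown because the Card9 probes are the check of the deleted gene, and the Prkcd probe is the only other probe of the 9 genes that spans an intron. They are given as in the scanner files, in lower case with no part marked. Card9 probe 1 lies at chr2:26212384-26212744 and Card9 probe 2 at chr2:26208066-26208504, and Prkcd probe 1 at chr14:31414383-31414970, all on the minus strand of mm9. They begin at bases 911 and 1390 of the Card9 transcript and at base 1558 of the Prkcd transcript.
Card9 probe 1: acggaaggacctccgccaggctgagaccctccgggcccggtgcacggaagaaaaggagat
Card9 probe 2: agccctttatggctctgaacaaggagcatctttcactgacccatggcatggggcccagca
Prkcd probe 1: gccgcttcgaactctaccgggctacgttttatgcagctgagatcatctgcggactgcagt

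A level is the log2 of the processed signal minus that of the 75th percentile of the same array, which therefore has the level 0. Levels of different probes are not compared. Probes of a gene are numbered by their start in the transcript that the files name. A spot is called well above background where the scanner software marked it so. Between 28326 and 33503 of 59305 spots per array were well above background (47.8% to 56.5%), and 0 spots were saturated. Slide 1, in a single scan, held the 4 wt arrays together with Card9-/- replicate 4, while slide 2 held Card9-/- replicates 1 and 3 and slide 3 the remaining Card9-/- array. Values within slide 1 compare 4 wt arrays with 1 Card9-/- array. The genotypes also differed in sex-linked RNA: Eif2s3y and Ddx3y, which lie on the Y chromosome, cleared background on 4 Card9-/- and 0 wt arrays, and Xist on 0 and 4. Sex and genotype therefore cannot be told apart in any difference below.

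The labelled cell type was checked against its markers. Of the 7 macrophage markers 5 were well above background on all arrays, Mertk on 2 wt and 0 Card9-/- arrays and Fcgr1 on 2 wt and 4 Card9-/- arrays. The 6 markers tested averaged 0.99, 1.11, 6.33 and 5.21 on the wt arrays, in order of replicate number, and 2.43, 2.26, 2.47 and 2.75 on the Card9-/- arrays. The wt arrays thus lay on both sides of the Card9-/- arrays. The resident macrophage list was ordered alike, at -2.11, -1.87, 4.93 and 2.78 in wt and -0.44 to 0.20 in Card9-/-. Over the tested probes wt replicates 1 and 2 had the highest correlation of all pairs of arrays (Pearson r = 0.985). With wt replicates 3 and 4 they correlated at 0.81 to 0.89, and with Card9-/- replicate 2 at 0.95 and 0.96. The fits count wt replicates 1 and 2 as separate samples, and averaging them was run as an alternative. Lymphocyte RNA was present throughout. B cell markers (7 of 7 tested) averaged 2.00 to 3.49 in wt and 3.00 to 3.82 in Card9-/-, and 7 of 7 cleared background on all 8 arrays. T cell markers (8 of 8) averaged 0.33 to 0.90 in wt and 1.47 to 2.88 in Card9-/-, and natural killer cell markers (6 of 7) -1.49 to -0.68 in wt and -0.12 to 2.25 in Card9-/-. All tested markers of both lists were higher in Card9-/- (median differences 1.48 and 2.33). At an unadjusted p under 0.05 these were 7 of 8 and 5 of 6, against 6.9% of all probes in either direction. No marker of either list passed (limma, adjusted p of 0.05). Neutrophil markers (8 of 8) averaged 1.51 to 3.32 in wt and 0.28 to 3.71 in Card9-/-, mast cell markers (5 of 5) 0.49 to 4.08 and -0.18 to 3.57, mesothelial markers (4 of 6) -2.82 to 0.49 and -1.92 to -0.92, and red cell markers (4 of 5) 1.25 to 5.66 and 4.67 to 8.61. Of the fat cell list 1 of 4 genes was tested, at -2.06 to 2.34 in wt and -5.92 to -4.87 in Card9-/-, with Adipoq and Cidec on 0 arrays. Of the epithelial list 1 of 3 was tested, at -2.07 to -1.45 and -2.24 to -0.89, with Cdh1 and Krt5 on 0 arrays. In such mixed samples fewer cells of a type and less RNA per cell cannot be told apart. The part of these cell types in the differences below was not tested.

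**Figure D1:**
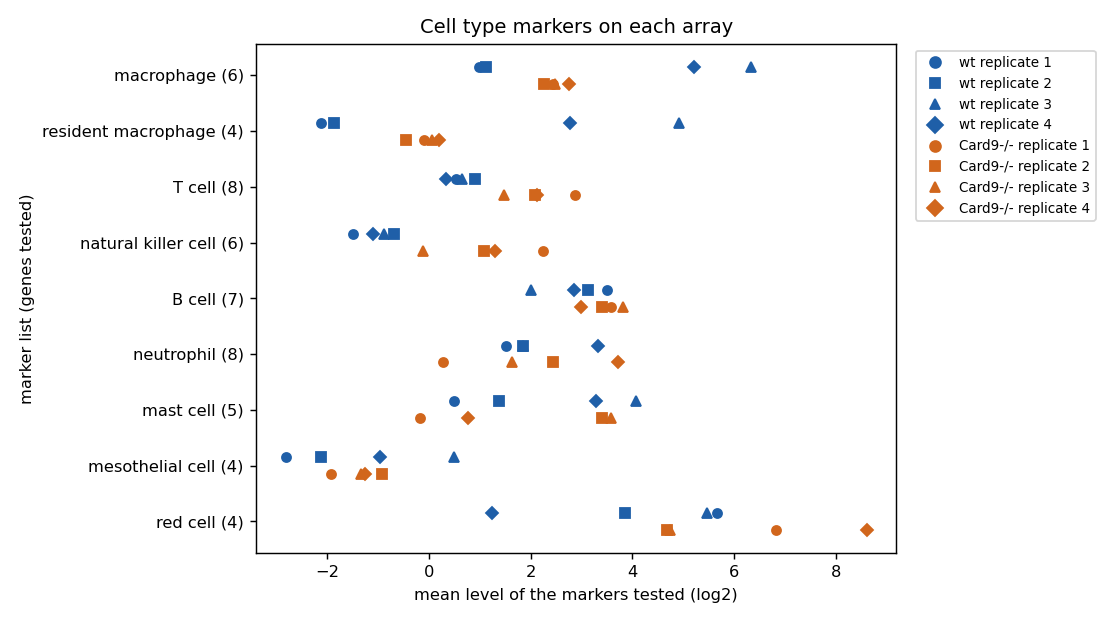
Mean log2 level of the tested genes of 9 marker lists (vertical axis, genes tested in brackets) on each of the 8 arrays, wt in blue and Card9-/- in orange, with 1 symbol per replicate number. The macrophage means of wt replicates 1 and 2 (0.99 and 1.11) lie below all Card9-/- arrays and those of wt replicates 3 and 4 (6.33 and 5.21) above them.

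Of the 22 probes, 20 cleared background on 3 or more arrays of 1 genotype and were tested, and these cover all 9 genes. Card9 probe 1 and Trim62 probe 1 did not pass that filter. None of the 20 probes passed an adjusted p of 0.05 (limma, Benjamini-Hochberg over 28169 probes, lowest adjusted p = 0.610), while 0.0391% of all probes tested did (0.032% higher and 0.0071% lower in Card9-/-). At an unadjusted p under 0.05 there were 2 (Card9 probe 2 and Malt1 probe 2, both lower in Card9-/-), against 6.9% of all probes in either direction and 4.21% lower. The difference was below 0 for 15 of the 20, against 54% of all probes. With median scaling it was 17 of 20 (all probes, 65.6%), with quantile normalization 13 (all probes, 51.4%) and with normexp 13 (all probes, 42.8%). Card9 probe 2 is in each of these counts and in the 2 above. It belongs to the deleted gene and passed the filter through wt alone (3 wt and 0 Card9-/- arrays), so its direction was not an open outcome. The median difference of the 20 was -0.21, against -0.06 for all probes tested. The 2 genotypes did not overlap at 2 of the 20 (Syk probe 4 and Bcl10 probe 2), against 5.09% of all probes in either direction and 3.36% lower.

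**Figure D2:**
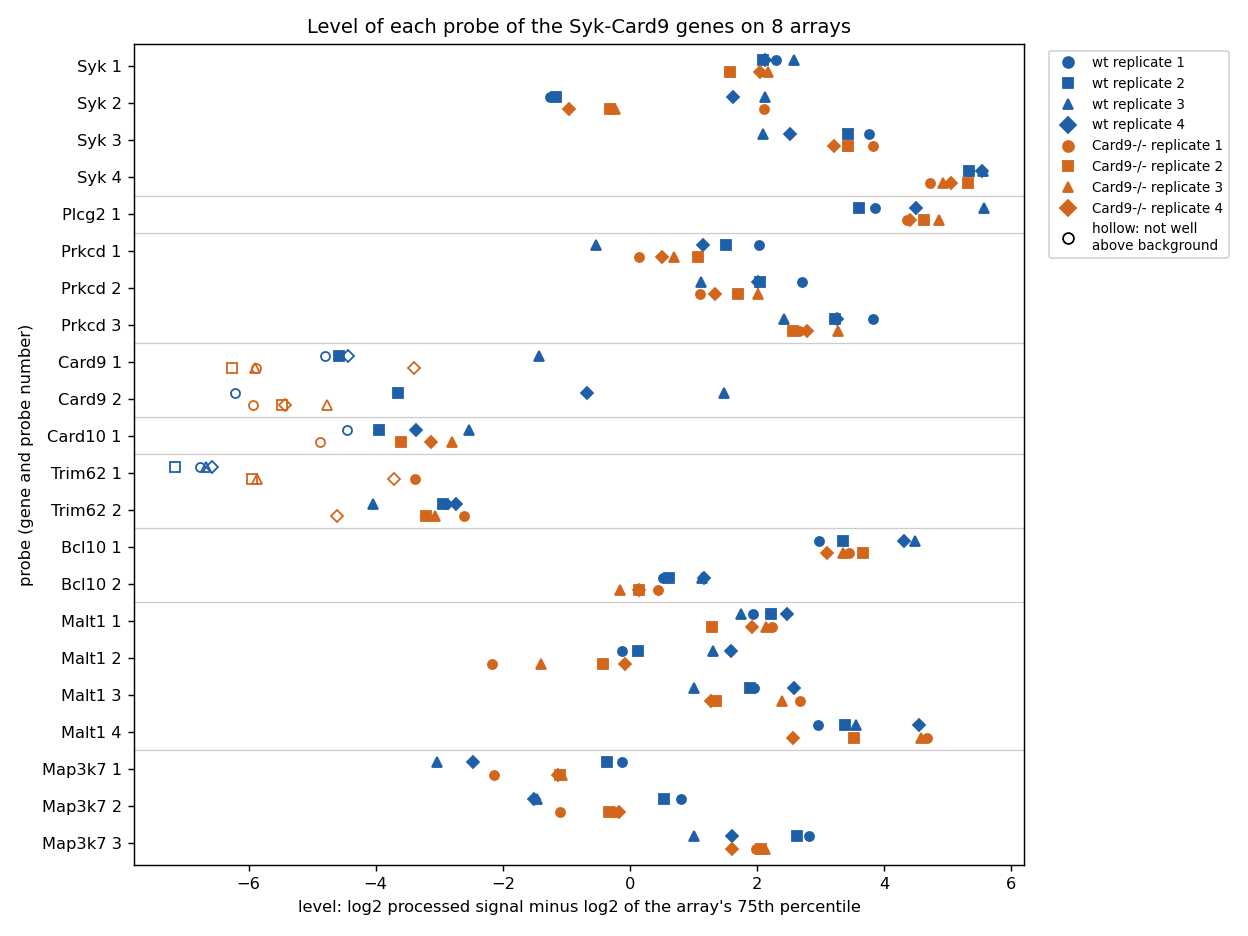
Level of the 22 probes (log2, horizontal axis; 0 is the array's 75th percentile) on 8 arrays, wt in blue and Card9-/- in orange, 1 symbol per replicate number, hollow where the spot was not well above background. The wt arrays spread widely at Card9 probe 2 (-6.21 to 1.48) and Map3k7 probe 1 (-3.04 to -0.13), while at Syk probe 4 they lie between 5.33 and 5.55.

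Card9 itself, the deleted gene, checks the labels and comes first. In order of replicate number, processed signals at probe 2 were 4.75, 38.2, 1058 and 561 units on wt arrays against 3.60, 11.9, 8.85 and 4.52 units on Card9-/- arrays. The levels were -6.21, -3.66, 1.48 and -0.67 in wt and -5.93, -5.48, -4.77 and -5.43 in Card9-/-. Card9 RNA thus cleared background on 3 wt and 0 Card9-/- arrays, and the library labelled wt replicate 1 had the lowest level of all 8. That rank holds after scaling only, since its processed signal (4.75) lay above those of Card9-/- replicates 1 and 4 (3.60 and 4.52). That library did not carry the RNA that its label calls for above background. In Xist, Eif2s3y and Ddx3y it was marked like the other wt arrays (Xist on 4 wt and 0 Card9-/- arrays). Every difference below is given with the label of that library as it stands.

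The Card9 levels of the wt arrays stood in the order of their mean macrophage marker level. Between wt replicates 1 and 2 the single markers were split. Adgre1, Csf1r and Itgam were higher in replicate 1, and Cd68, Lyz2 and Fcgr1 in replicate 2. The largest of these steps was that of Fcgr1 (-6.64 against -4.91), which cleared background on only 2 wt arrays. The order of the means was not particular to macrophage markers. The mast cell list (0.49, 1.38, 4.08 and 3.28) and the mesothelial list (-2.82, -2.13, 0.49 and -0.97) shared it, as did Ucp1 of the fat cell list. The neutrophil, B cell, T cell, natural killer cell, red cell and epithelial lists did not. Replicates 3 and 4, with macrophage means of 6.33 and 5.21, carried the bright Card9 signals, and replicates 1 and 2, with means of 0.99 and 1.11, the dim ones. The Card9-/- arrays had macrophage means of 2.26 to 2.75, above that of wt replicate 2. Their Card9 spots were not well above background, and that of wt replicate 2 was. The level of wt replicate 2 (-3.66) lay below the lowest level well above background on Card9-/- replicates 1 (-3.64) and 4 (-3.47), so an equal level would not have been marked there.

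Averaged over 4 arrays each, Card9 probe 2 stood at -2.27 ± 3.37 in wt and -5.40 ± 0.48 in Card9-/- (SD), a difference of -3.14 (SE 1.37, adjusted p = 0.723 in limma). Card9-/- was 2.78-fold lower when the lowest level well above background on each Card9-/- array stands for its level. This bound is approximate, because spots above that level can be unmarked. Card9 probe 1 on Card9-/- replicate 4 was such a spot (-3.40 against -3.47). Leaving out wt replicate 3 lowered this bound to 1.17-fold, and leaving out the library labelled wt replicate 1 raised it to 6.92-fold. By the exact two-sided permutation test the difference was within the spread of the arrays (p = 0.143). Without both wt replicates 1 and 2, an alternative chosen after the data were seen, the difference was -5.81 (adjusted p = 0.0177 in limma), and without both wt replicates 3 and 4 it was -0.47. It was -1.20 with normexp background correction, -4.03 with wt replicates 1 and 2 averaged, and -3.16 within slide 1. The normexp value, 2.305-fold lower in Card9-/-, falls under the bound of 2.78-fold.

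Card9 probe 1 lies nearer the start of the transcript and was dimmer. Its levels were -4.80, -4.57, -1.42 and -4.44 in wt and -5.89, -6.26, -5.90 and -3.40 in Card9-/-. Only wt replicates 2 and 3 were well above background, and Card9-/- replicate 4, not marked so, gave the second highest level of the 8. The difference of -1.55 did not exceed the spread (exact permutation p = 0.171), and no bound above 1 could be given. Both probes place wt replicate 3 highest. At probe 2, wt replicates 2 to 4 all exceed every Card9-/- array, and at probe 1 wt replicate 3 alone does.

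**Figure D3:**
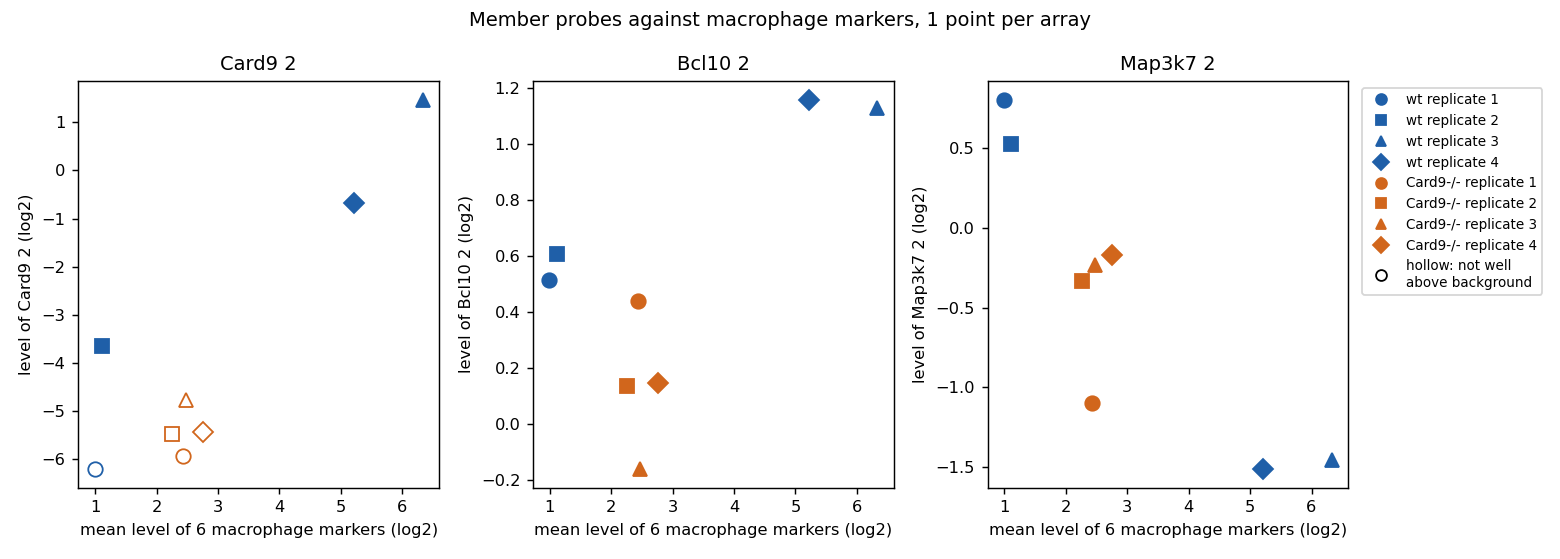
Level of Card9 probe 2, Bcl10 probe 2 and Map3k7 probe 2 (log2, vertical axes) against the mean level of 6 macrophage markers (log2, horizontal axes), 1 point per array, hollow where not well above background. Wt replicates 3 and 4 lie at the right of each plot, high for Card9 (1.48 and -0.67) and Bcl10 (1.13 and 1.16) and low for Map3k7 (-1.46 and -1.51).

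Upstream of Card9, Syk gave 4 probes that did not move together. Levels are given here and below in order of replicate number. Probe 4, at the end of the reference transcript (chromosome 13, 52744088 to 52744147, mm9, from base 5029), read 5.33, 5.33, 5.55 and 5.55 in wt and 4.72, 5.32, 4.92 and 5.05 in Card9-/-. The wt arrays were nearly level, and all lay above all Card9-/- arrays, Card9-/- replicate 2 by a hair. The difference was -0.43 (SE 0.32, adjusted p = 0.845 in limma; 95% interval -1.15 to 0.28), -0.39 within slide 1, and 0.016 with quantile normalization. Probe 1 of the same transcript (52741275 to 52741334, from base 2216) read 2.29, 2.10, 2.57 and 2.13 in wt and 1.56, 1.58, 2.18 and 2.05 in Card9-/-, a difference of -0.43 (SE 0.34). Only Card9-/- replicate 3 reached into the wt range there.

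The other Syk probes were designed on other transcripts, probe 2 on a cDNA clone and probe 3 on an Ensembl transcript. Probe 3 (52708988 to 52709047) read 3.77, 3.42, 2.10 and 2.51 in wt and 3.83, 3.43, 3.43 and 3.22 in Card9-/-, a difference of 0.53 (SE 0.44). It was lowest in the wt arrays with the most macrophage RNA. Probe 2 (52738924 to 52738983) read -1.26, -1.16, 2.13 and 1.63 in wt and 2.11, -0.31, -0.24 and -0.97 in Card9-/-, a difference of -0.18 (SE 0.93). It was high in wt replicates 3 and 4 and in Card9-/- replicate 1. These 2 probes thus ordered the wt arrays in opposite ways, although the files give both the name Syk. Within slide 1 the differences of probes 1, 2 and 3 were -0.22, -1.30 and 0.27. Neither of the latter 2 probes passed (adjusted p = 0.982 for probe 2 and 0.865 for probe 3 in limma).

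Plcg2, the phospholipase that follows Syk, has 1 probe (chromosome 8, 120158980 to 120159037). Its levels were 3.85, 3.61, 5.56 and 4.49 in wt and 4.36, 4.63, 4.86 and 4.40 in Card9-/-. The Card9-/- arrays lay within the wt range, which spanned nearly 2 log2 units. The means were 4.38 ± 0.87 and 4.56 ± 0.23 (SD, n = 4 each), a difference of 0.18 (SE 0.46, adjusted p = 0.961 in limma; 95% interval -0.86 to 1.22) that turned to -0.07 without wt replicate 2 and was 0.02 within slide 1.

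Prkcd, the kinase that phosphorylates Card9, was lower in Card9-/- at each of its 3 probes by a similar amount, and none passed. Probe 1, which spans an intron, read 2.02, 1.51, -0.53 and 1.14 in wt and 0.14, 1.07, 0.70 and 0.51 in Card9-/-, a difference of -0.43 (SE 0.55). Probe 2 (chromosome 14, 31411938 to 31411997) read 2.71, 2.05, 1.11 and 2.02 in wt and 1.11, 1.70, 2.01 and 1.34 in Card9-/-, a difference of -0.43 (SE 0.43). Probe 3 (31409035 to 31409094) read 3.83, 3.22, 2.43 and 3.25 in wt and 2.67, 2.57, 3.28 and 2.78 in Card9-/-, a difference of -0.36 (SE 0.40). At all 3 probes wt replicate 1 was the highest array and wt replicate 3 the lowest of the wt arrays, so the genotype difference was smaller than the spread within wt (adjusted p of 0.882 to 0.911 in limma). Without both wt replicates 1 and 2 probe 1 turned to 0.30, and probes 2 and 3 came to -0.025 and -0.018. Within slide 1 the 3 differences were -0.53, -0.63 and -0.40.

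At the level of Card9 itself, Card10 has 1 probe (chromosome 15, 78605738 to 78605797), which lay close to background. It read -4.46, -3.95, -2.53 and -3.36 in wt and -4.87, -3.61, -2.81 and -3.13 in Card9-/-, and replicate 1 of each genotype was not well above background. The groups covered nearly the same range. The difference was -0.03 (SE 0.57, adjusted p = 0.996 in limma; 95% interval -1.30 to 1.24), 0.47 with normexp and 0.45 within slide 1. Card10 was therefore not detectably higher where Card9 was absent, within an interval that still allows more than 1 log2 unit either way.

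Trim62, the ubiquitin ligase of Card9, was also dim. Probe 2 (chromosome 4, 128588257 to 128588316) read -2.89, -2.94, -4.05 and -2.73 in wt and -2.61, -3.21, -3.07 and -4.61 in Card9-/-, with Card9-/- replicate 4 not well above background. The difference of -0.22 (SE 0.51, adjusted p = 0.956 in limma) turned to 0.24 with normexp and was -1.46 within slide 1, where the 1 Card9-/- array is the one not well above background. Probe 1 (128580735 to 128580794), designed on an Ensembl transcript, was well above background only on Card9-/- replicate 1 (-3.37). Its other levels were -6.77, -7.16, -6.67 and -6.57 in wt and -5.95, -5.87 and -3.71 in Card9-/- replicates 2 to 4. The levels of the groups did not overlap there (exact permutation p = 0.0286, the smallest that 70 assignments can give). Before scaling the signals did overlap (3.23 to 9.37 units in wt and 4.13 to 21.2 in Card9-/-). With dim probes kept, 34.4% of all probes were lower in Card9-/-, against 54% of those that cleared the filter. Of the 8 spots, 7 were not well above background, and no fold is given.

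Bcl10, which Card9 polymerizes, was lower in Card9-/- at both probes without passing. Probe 2 (chromosome 3, 145588021 to 145588080) read 0.51, 0.61, 1.13 and 1.16 in wt and 0.44, 0.13, -0.16 and 0.14 in Card9-/-. All wt arrays lay above all Card9-/- arrays. The means were 0.85 ± 0.34 and 0.14 ± 0.25 (SD, n = 4 each), a difference of -0.71 (SE 0.34, adjusted p = 0.749 in limma; 95% interval -1.48 to 0.05; exact permutation p = 0.0286, the smallest possible). The difference stayed between -0.83 and -0.61 when any 1 array was left out, and it was -0.71 within slide 1. It was -1.01 without both wt replicates 1 and 2 and -0.42 without both wt replicates 3 and 4. This probe was designed on an Ensembl transcript, whereas probe 1 (145597064 to 145597123) lies on the reference transcript. Probe 1 read 2.97, 3.36, 4.48 and 4.32 in wt and 3.45, 3.67, 3.36 and 3.11 in Card9-/-. There every Card9-/- array lay above wt replicate 1 and below wt replicates 3 and 4. Its difference was -0.39 (SE 0.43, adjusted p = 0.897 in limma), -0.68 within slide 1, and 0.23 without both wt replicates 3 and 4, the arrays with the highest macrophage means.

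Malt1, the protease of the complex, gave differences from -1.74 to 0.22 among its 4 probes, the widest gap among the genes with several tested probes. Probe 2, on the reference transcript (chromosome 18, 65636336 to 65636395, from base 2897), read -0.13, 0.12, 1.30 and 1.59 in wt and -2.17, -0.43, -1.41 and -0.08 in Card9-/-. The groups overlapped only in that Card9-/- replicate 4 lay just above wt replicate 1. The means were 0.72 ± 0.85 and -1.02 ± 0.95 (SD, n = 4 each), a difference of -1.74 (SE 0.58, adjusted p = 0.610 in limma; 95% interval -3.05 to -0.44) that stayed between -2.06 and -1.36 without any 1 array. The exact permutation p was 0.0571. Within slide 1 the difference was -0.80, and it was -2.46 without both wt replicates 1 and 2 and -1.02 without both wt replicates 3 and 4.

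Probe 4, which lies further along the same transcript (65638340 to 65638399, from base 4901), did not share that difference. It read 2.96, 3.38, 3.56 and 4.55 in wt and 4.67, 3.52, 4.58 and 2.56 in Card9-/-, a difference of 0.22 (SE 0.56, adjusted p = 0.961 in limma), and -1.05 within slide 1. Card9-/- replicates 1 and 3, which share slide 2, were the lowest arrays at probe 2 and the highest at probe 4. The 2 probes of cDNA clones lay further upstream on the genome. Probe 1 (65619555 to 65619614) read 1.94, 2.22, 1.74 and 2.47 in wt and 2.23, 1.29, 2.14 and 1.91 in Card9-/-, a difference of -0.20 (SE 0.36). Probe 3 (65613877 to 65613936) read 1.95, 1.89, 1.00 and 2.58 in wt and 2.68, 1.36, 2.39 and 1.28 in Card9-/-, a difference of 0.07 (SE 0.48), or -0.10 with median scaling. Within slide 1 these were -0.18 and -0.58. The 95% intervals of these 3 probes all include 0.

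Map3k7, the kinase TAK1 downstream of the complex, gave 3 probes with 1 pattern. Probe 1 (chromosome 4, 32068474 to 32068533) read -0.13, -0.36, -3.04 and -2.47 in wt and -2.14, -1.10, -1.08 and -1.14 in Card9-/-. Probe 2 (32104023 to 32104082) read 0.81, 0.53, -1.46 and -1.51 in wt and -1.10, -0.33, -0.23 and -0.17 in Card9-/-. Probe 3 (32107645 to 32107704), on another reference transcript, read 2.81, 2.63, 1.01 and 1.60 in wt and 1.98, 2.06, 2.12 and 1.61 in Card9-/-. At each probe wt replicates 1 and 2 were the highest of the 8 arrays and wt replicates 3 and 4 the lowest. The differences were 0.14 (SE 0.68), -0.05 (SE 0.60) and -0.07 (SE 0.46), with adjusted p of 0.982 to 0.993 in limma. Within slide 1 they were 0.36, 0.24 and -0.41. Their signs turned with single arrays and with scaling (probe 3 was 0.024 with quantile normalization and probe 1 was -0.04 with median scaling).

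**Figure D4:**
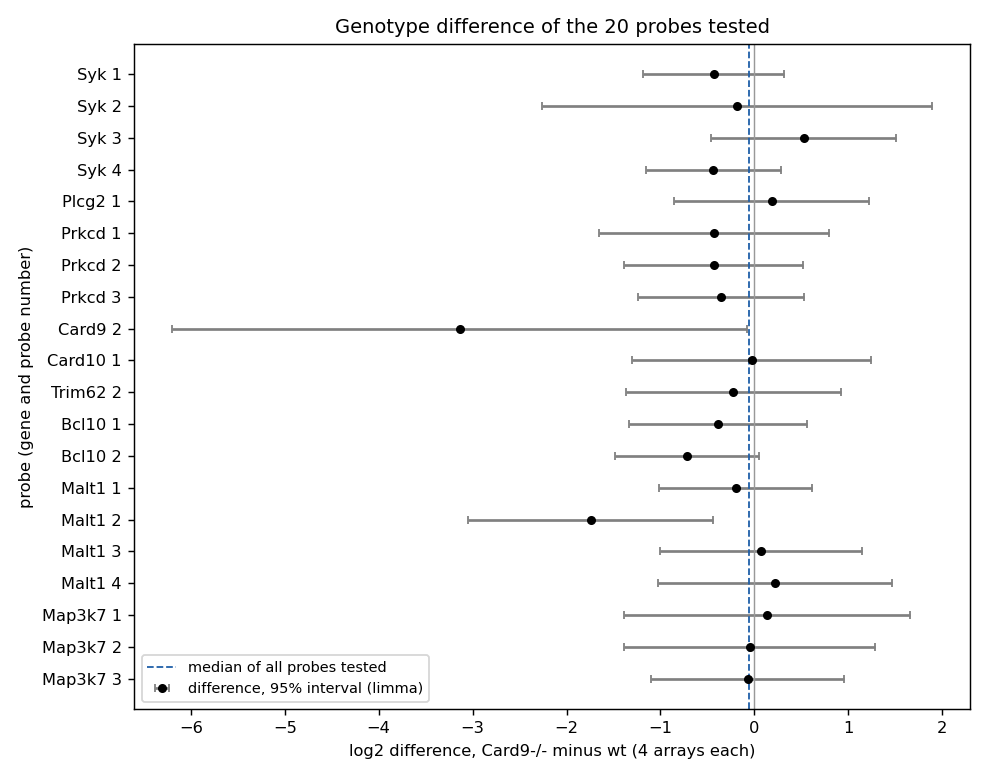
Log2 difference (Card9-/- minus wt, 4 arrays each, horizontal axis) of the 20 probes tested, with 95% intervals from limma that are not adjusted for the number of probes, and the median of all probes tested (-0.06, dashed). The interval lies wholly below 0 for Card9 probe 2, of the deleted gene, and Malt1 probe 2, neither of which passed after adjustment.

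The genes whose levels followed Card9 probe 2 most closely over the 8 arrays were Txn1, the redox protein thioredoxin (Pearson r = 0.979), Piga, of glycolipid anchor synthesis (0.974), Mrpl52, a mitochondrial ribosomal protein (0.972), Hk2, a hexokinase of glycolysis (0.971), and Fem1c (0.969). These values are a description of 8 arrays that share the spread in macrophage markers, and 5 of the 8 Card9 spots were not well above background. Txn1, for example, had levels of 6.50 and 5.81 in wt replicates 3 and 4, above the 3.31 to 4.06 of the other 6 arrays. For Syk probe 4 the 5 closest were transcripts that the files name only by an accession or clone (r of 0.984 to 0.988).

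Of the other genes of the pathway, 74 of 77 listed were tested, each at its brightest probe, and none passed (limma, 0 at an adjusted p of 0.05). At an unadjusted p under 0.05 there were 5, with 3 higher and 2 lower in Card9-/-, against 6.9% of all probes. The difference was below 0 for 39 and above 0 for 35, with a median of -0.03 against -0.06 for all probes. The genes named from a list are those with the smallest p.

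Among the receptors and their adaptors (8 of 8 tested, 6 below 0, median -0.18) the adaptor Tyrobp differed by -1.14 (SE 0.69) and Clec4e, the receptor Mincle, by -0.77 (SE 1.30). The mean of this list ran from 0.05 in wt replicate 1 to 5.24 in wt replicate 4 and from 2.11 to 3.07 in Card9-/-. Like the macrophage mean, it lay below all Card9-/- arrays in wt replicates 1 and 2 and above them in wt replicates 3 and 4. The highest wt array and the order of the Card9-/- arrays were not the same for the 2 lists. Of the Src family and the partners of Syk (15 of 15, 9 below 0, median -0.15) the kinases Tec (-0.67, SE 0.38) and Btk (0.50, SE 0.42) were first. Of the relatives of Prkcd and Plcg2 (6 of 6 tested) 5 were above 0, with a median of 0.82. Prkcq, the protein kinase C of T cells, differed by 1.65 (SE 0.40, adjusted p = 0.553 in limma) and Prkch by 1.14 (SE 0.48, adjusted p = 0.700). Prkcq read -0.21, 0.06, -1.30 and -0.15 in wt and 1.49, 1.47, 0.99 and 1.03 in Card9-/-, and T cell markers were higher in the same arrays (1.47 to 2.88 against 0.33 to 0.90).

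All 3 tested CARD adaptor relatives (of 4 listed) were above 0, with a median of 0.43. Card6 differed by 0.49 (SE 0.52). Below the complex, the TAK1 and IkB kinase level (10 of 10, 5 below 0, median 0.06) was led by Tab3, a TAK1 subunit (0.93, SE 0.47), and Ube2v1, a ubiquitin-conjugating cofactor (-0.62, SE 0.34). Of the NF-kB subunits 4 of 5 were below 0, with a median of -0.45. Nfkb2, the p100 precursor, differed by -1.31 (SE 0.49, adjusted p = 0.652 in limma) and Nfkb1 by -0.45 (SE 0.35). Nfkb2 read 3.40, 3.23, 5.20 and 4.75 in wt and 2.77, 2.84, 2.72 and 3.02 in Card9-/-, again highest in wt replicates 3 and 4.

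Of the brakes on the route (7 of 8 tested, 3 below 0, median 0.21) Usp15, a deubiquitinase of Card9, differed by 0.94 (SE 0.43, adjusted p = 0.731 in limma) and Rubcn, a Card9-binding regulator of autophagy, by 0.36 (SE 0.41). Of the substrates of the Malt1 protease (8 of 8, 5 below 0, median -0.39) N4bp1 differed by -1.11 (SE 0.46, adjusted p = 0.688) and Zc3h12a, the RNase Regnase-1, by -0.93 (SE 0.44, adjusted p = 0.741). The list of outputs of Card9 signalling (13 of 14 tested, 7 below 0, median -0.03) also holds 2 signalling genes. These are Hras, whose difference is that median, and Rasgrf1, which was not tested. In this list Il12b, a subunit of interleukins 12 and 23, was the farthest apart, with 3.20 (SE 0.96, adjusted p = 0.582 in limma). It read -2.22, -2.24, -1.69 and -3.85 in wt and 3.15, 0.14, -1.89 and 1.41 in Card9-/-, so that Card9-/- replicate 3 lay within the wt range. Nfkbia, the NF-kB inhibitor, differed by -0.77 (SE 0.38). The genes of this list thus did not lie on 1 side in the mice without Card9.

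With array weights, whose algorithm stopped before it converged, 5 of the 74 genes passed, against 1316 of all 28169 probes tested (limma). Without both wt replicates 1 and 2, an alternative chosen after the data were seen, 8 genes passed, against 724 of the 28169 probes. All 8 were lower in Card9-/-. The 8 were Tyrobp, Clec4e, Cd209a, Mrc1, Fgr, Lcp2, Vav3 and Nfkb2, with differences from -4.34 for Cd209a to -2.14 for Nfkb2. In that alternative the wt group holds only the 2 arrays with macrophage means of 6.33 and 5.21.

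**Figure D5:**
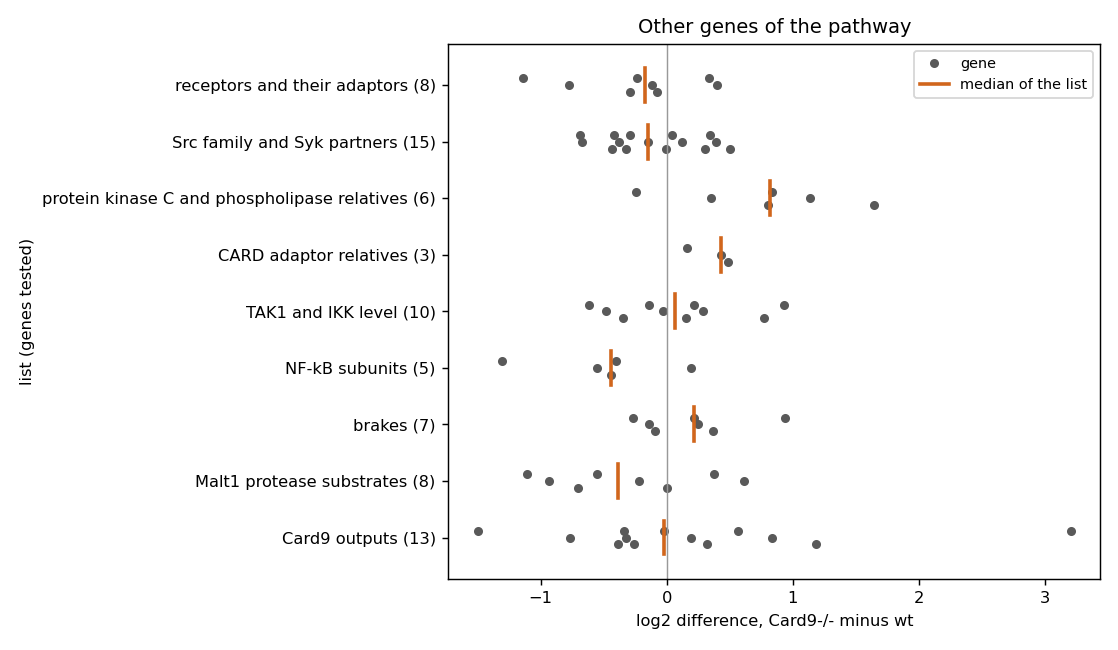
Log2 difference (Card9-/- minus wt, horizontal axis) of the tested genes of 9 pathway lists (vertical axis, genes tested in brackets), 1 point per gene at its brightest probe, with the median of each list in orange. The medians run from -0.45 for NF-kB subunits to 0.82 for protein kinase C and phospholipase relatives, and no gene passed the adjusted threshold.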

How the data were processed

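The members and gene lists were chosen with earlier results of these data known. Per the file headers, the deposited intensity of a spot was measured with Agilent Feature Extraction (version 10.7.1.1), background-subtracted and detrended within its array, and arrays were not scaled to each other. The authors' matrix of log2 values appears quantile normalized, and its last 7075 rows are shifted by 1 probe, so that only the first 49670 were used, as an alternative. From the files, log2 processed signals were set relative to the 75th percentile over non-control spots of each array. Outlier spots by the scanner's marks, 63 to 213 an array, were dropped and repeated spots averaged. Probes that cleared background on 3 or more arrays of 1 genotype were fitted with limma 3.58.1 in R 4.3.3 (intercept and genotype, two-sided, Benjamini-Hochberg over all probes at 0.05), after a test on simulated data. Exact permutation tests ran over all 70 assignments of the arrays. An approximate bound on a fold was given where a genotype had no array above background. It replaced only that genotype's levels by each array's lowest level well above background, where that was higher. Levels of the other genotype stayed as measured.

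Each member was shown at every probe of its name. Other genes took their brightest tested probe and were named through the gene table of GRCm38.p6 (accession, symbol or a synonym of 1 gene). Of each list the genes past the threshold were to be named, or else the 2 with the smallest p, and for Card9 and Syk the 5 genes most correlated over the arrays. One gene that this rule names is not reported here. No genome of the files' build (mm9) was used, so exon or intron is not stated. The number of arrays limits the precision. Same-numbered arrays of the 2 genotypes did not deviate together (correlations of -0.25 to 0.25, with 1 of 4 over 0.1), so the fit was not paired. The alternatives were another background correction, scaling, filter, probe choice and moderation, array weights, the slide or the replicate number as a block, and samples left out or averaged.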

Additional observations from a re-analysis of the deposited data

Results flagged for a closer look

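In 4 of the 44 sets of 4 arrays examined (22 probes in 2 genotypes), 1 array stood apart from the other 3, which chance gives in about 1 of 20 sets. At Card9 probe 1, wt replicate 3 was the highest at -1.42, against -4.44 for the next, and Card9-/- replicate 4 the highest of its genotype at -3.40, against -5.89, without being well above background. At Trim62 probe 2, wt replicate 3 was the lowest at -4.05, against -2.94 for the next. At Map3k7 probe 1, Card9-/- replicate 1 was the lowest at -2.14, against -1.14.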

How the results depend on the processing

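None of the alternatives listed in the methods, other than leaving out both wt replicates 1 and 2, carried a member past the adjusted threshold in limma. This includes the fit with the replicate number as a block (replicate block), which gave 0 members and 0 pathway genes and left Card9 probe 2 at -3.14 (adjusted p = 0.929). Array weights, whose algorithm stopped before it converged, carried 5 pathway genes past it, and called 1316 probes in all against 11. Without both wt replicates 1 and 2, chosen after seeing the data, 1 member passed (Card9 probe 2, -5.81), as did 8 pathway genes and 724 probes in all. Blocking on slide, or using slide 1 alone, 0 probes passed, but both fits rest on the single Card9-/- array of slide 1 and give the same differences, with that array assumed to vary like the others, so this says nothing about stability. Median scaling moved the median of all probes by -0.175, normexp by 0.154 and the slide block by -0.152. Leaving out 1 array at a time gave -4.45 to -1.89 for Card9 probe 2. The following differences turned their sign, none of them past the threshold. With array weights they were Syk probe 2 (1.07), Card10 (0.54), Bcl10 probe 1 (0.19), Malt1 probe 3 (-0.047) and Map3k7 probe 1 (-0.84). Blocking on slide, and equally on slide 1 alone, they were Card10 (0.45), Malt1 probe 3 (-0.58), Malt1 probe 4 (-1.05) and Map3k7 probe 2 (0.24). With quantile normalization they were Syk probe 4 (0.016) and Map3k7 probe 3 (0.024, and 0.026 in the authors' matrix). With median scaling they were Malt1 probe 3 (-0.10) and Map3k7 probe 1 (-0.037), and with normexp Card10 (0.47) and Trim62 probe 2 (0.24). With wt replicates 1 and 2 averaged they were Plcg2 (-0.033), Map3k7 probe 2 (0.31) and Map3k7 probe 3 (0.17). Without both wt replicates 1 and 2 they were Plcg2 (-0.47), Prkcd probe 1 (0.30), Trim62 probe 2 (0.014), Malt1 probe 4 (-0.22), Map3k7 probe 2 (1.03) and Map3k7 probe 3 (0.64). Without both wt replicates 3 and 4 they were Syk probe 2 (1.36), Syk probe 3 (-0.12), Card10 (0.60), Bcl10 probe 1 (0.23) and Map3k7 probe 1 (-1.12). Leaving out 1 array at a time gave ranges that cross 0 for Syk probe 2 (-0.84 to 0.41), Plcg2 (-0.074 to 0.58), Card10 (-0.32 to 0.39), Trim62 probe 2 (-0.52 to 0.19), Malt1 probe 1 (-0.31 to 0.0036), Malt1 probe 3 (-0.21 to 0.31), Malt1 probe 4 (-0.057 to 0.64), and Map3k7 probes 1 (-0.37 to 0.60), 2 (-0.42 to 0.35) and 3 (-0.41 to 0.20). The cause of these changes was not tested. Syk probe 1, Prkcd probes 2 and 3, Card9 probe 2, Bcl10 probe 2 and Malt1 probe 2 kept their sign under every alternative run. Prkcd probes 2 and 3 nonetheless came close to 0 without both wt replicates 1 and 2 (-0.025 and -0.018). Signal over background limits Card9, Card10 and Trim62, whose spots lay near or below it on some arrays.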

Other observations

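One probe that the files name Dear1 carries an accession that the gene table assigns to Trim62. It cleared background on 2 wt and 0 Card9-/- arrays and was not tested in limma. Its levels averaged -4.84 ± 1.27 in wt and -4.81 ± 0.70 in Card9-/- (SD, n = 4 each), a difference of 0.025 (exact permutation p = 1).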
